A study of Oryza sativa with 6 samples.

Results

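The terminal megabases of the rice chromosomes were examined for HMG-GFP peaks, in the 3 peak lists of a chromatin immunoprecipitation sequencing (ChIP-seq) experiment on the chromatin protein OsHMGB1. A peak was counted where its midpoint lay in the first or last 1 Mb of chromosomes 1 to 10, or in the last 1 Mb of chromosomes 11 and 12. The first 1 Mb of chromosomes 11 and 12 was left aside, and the 22 windows together held 22.0 Mb. On the 12 nuclear chromosomes the windows took 3619 of 60035 peaks in replicate 1, 3503 of 56812 in replicate 2 and, in replicate 3, 2820 of 41474. Merging overlapping peaks of the lists gave 3733 terminal regions of 60991 in all.

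The immunoprecipitates (IP, n = 3) came from leaf blades of transgenic rice carrying HMG-GFP, a fusion of the protein to green fluorescent protein, and the antibody was directed against GFP. The seedlings had spent 28 d in a condition that the labels call HP without defining it. The cycle was 12 h of light at 30 °C and 12 h of dark at 22 °C. The tissue was crosslinked with 1% formaldehyde for 30 min. Each IP has a matching input (n = 3), chromatin that saw no antibody, whose values were not analysed here. The labels name neither the promoter of the transgene nor the number of independent lines, and no IP from plants without HMG-GFP was analysed. They also do not say whether the replicates are separate plants, so the spread between lists may be partly technical.

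HMGB proteins carry the HMG box, a domain that binds the minor groove of DNA and bends it with little preference for sequence. In plants they are abundant components of chromatin. Chromosome ends combine several kinds of sequence: the telomere itself, subtelomeric repeats next to it, and then, in rice, mostly gene-rich euchromatin. The short arms of rice chromosomes 4 and 10 are known for their large share of heterochromatin, and the tip of the short arm of chromosome 9 carries ribosomal RNA genes.

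Replicate 3 stood apart from the other lists. It had the fewest peaks, and with the 22 ends as points its covered share had a Pearson r of -0.02 with replicate 1 (Spearman rho 0.19) and of 0.40 with replicate 2 (rho 0.49). Between replicates 1 and 2 the coefficients were 0.85 and 0.89. Ends share their library and some share a chromosome, so no p-value goes with these values. Means are therefore given with and without replicate 3 where that list moves them. Differences were taken within each list and tested over the 3 lists with a two-sided exact paired permutation test, which cannot give a p below 0.25. That value was reached by each of the 6 differences that ran the same way in 3 of 3 lists; after Benjamini-Hochberg adjustment over the 12 differences tested it was 0.5. No difference below passed 0.05, and the direction in each list is given instead.

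The start of each sequence was taken as the short-arm end, which is the convention for rice, and its last base as the long-arm end. That last base is the end of the outermost peak in any list. A peak therefore stands at every long-arm end by construction, and sequence beyond it is not counted. Position 1 at the short-arm ends does not depend on the peaks. The lists give no read counts, the depth is unknown, and positions count from 1 in a genome build not given in the sources used here. No gene was assigned to any peak.

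Compared with the rest of the chromosomes, the terminal windows of both arms together held slightly more peaks. There were 164.5, 159 and 128 peaks per Mb in the windows of replicates 1, 2 and 3, against 160.5, 152 and 110 per Mb in the rest. The terminal density was the higher one in 3 of 3 lists, by 9.95 ± 7.48 per Mb (SD, n = 3; exact permutation p = 0.25), and by 5.76 per Mb without replicate 3. The covered share was not moved in one direction. Peaks lay over 31.0%, 32.0% and 25.2% of the terminal bases of replicates 1, 2 and 3, whereas the shares in the rest were 31.8%, 32.2% and 21.4%. The difference was thus below 0 in replicates 1 and 2 and above 0 in replicate 3, and its mean of 0.94 percentage points became -0.48 when replicate 3 was left out (exact permutation p = 1 with n = 3). By arm, the long-arm windows were denser than the rest in 3 of 3 lists, with 170.2, 166 and 140.0 peaks per Mb. The short-arm windows, with 157.6, 151.4 and 114.0 per Mb, were denser only in replicate 3. Short-arm covered shares of 30.2%, 30.6% and 20.9% were below the rest in each list. Those of the long-arm windows, 31.7%, 33.1% and 28.7%, were above it in replicates 2 and 3 only.

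Terminal peaks were close to the others in width and fold. Their median width was 1200, 1400 and 1600 bp, against 1400, 1400 and 1600 bp in the rest, on a grid of 200 bp. Their median fold enrichment, a ratio that the authors give for each peak, was 2.91, 2.19 and 1.98 in the windows and 2.83, 2.17 and 2.04 in the rest. A fold of at least 2 was reached by 3091 terminal peaks in replicate 1 (85.4%), 2208 in replicate 2 (63.0%) and 1357 in replicate 3 (48.1%). Over all peaks of the 12 chromosomes the shares were 83.0%, 59.8% and 52.8%, so the windows were above their list in replicates 1 and 2 and below it in replicate 3. The lists did not share a direction for fold or for width.

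The next megabase inwards of the same ends is a closer comparison, since chromosome and arm are held. Against it the terminal megabase had fewer peaks, less covered sequence and lower folds in 3 of 3 lists, while median widths were equal. The next megabase held 175.5, 170 and 135 peaks per Mb, and the terminal minus adjacent difference was -10.95, -10.45 and -6.36 per Mb in replicates 1, 2 and 3. It was covered to 31.6%, 33.2% and 27.3%, and the terminal minus adjacent difference was -0.52, -1.26 and -2.13 percentage points, a mean of -1.30 ± 0.80 (SD, n = 3; exact permutation p = 0.25). The median fold there was 3.0, 2.29 and 2.04, and the share of peaks with a fold of at least 2 was 87.3%, 66.5% and 52.8%. In numbers, 15, 16 and 16 of the 22 ends had fewer peaks in their last megabase than in the next one. The covered share was less uniform: 10, 8 and 9 of the 22 ends were covered more in the last megabase than in the next. With windows of 0.5 Mb in place of 1 Mb the mean difference in covered share was 1.04, the opposite direction. The lists then split, with 4.31 and 2.09 in replicates 1 and 2 and -3.28 in replicate 3.

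**Figure D1:**
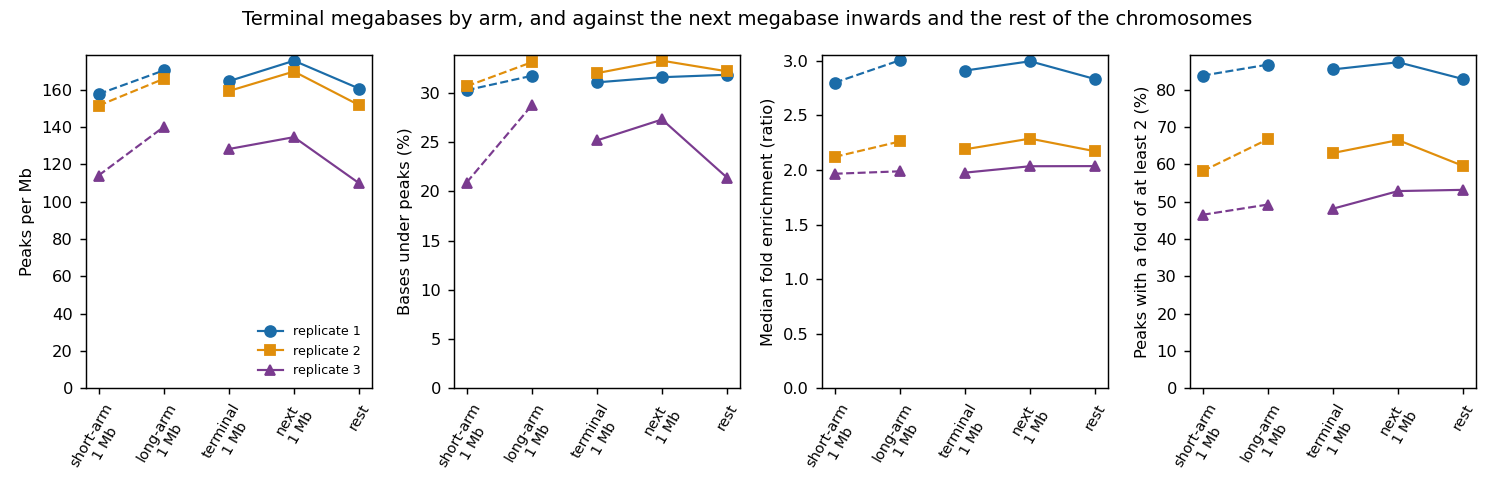
Peaks per Mb, percent of bases under peaks, median fold enrichment and percent of peaks with a fold of at least 2 in each replicate (points), for the short-arm and long-arm windows (dashed) and for all terminal windows, the next megabase and the rest (solid). In each panel and replicate the terminal megabase lies below the next one, while its place relative to the rest differs between replicates for all but the number of peaks.

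By distance from the end, the outermost 100 kb stood apart. This step had the fewest peaks of the 10 steps of 100 kb in every list, with 334, 311 and 231 in replicates 1, 2 and 3. The other steps had 345 to 381, 337 to 385 and 267 to 308. It was also the lowest of the 20 steps of the outer 2 Mb in all 3 lists. With the arms apart it remained the lowest of 10 at the short-arm ends in each list, but at the long-arm ends it ranked 9 of 10 from the highest in replicates 1 and 2. Among 20 steps it ranked 19 from the highest at the short-arm ends in replicate 3 and at the long-arm ends in replicates 1 and 2. As a density, the outermost 100 kb had 152, 141 and 105.0 peaks per Mb, and the other 900 kb had 166, 161 and 131 per Mb. The difference averaged -19.9 ± 5.83 per Mb (SD, n = 3; exact permutation p = 0.25), with the same sign in 3 of 3 lists. Per end the deficit was less regular, and 13, 15 and 13 of the 22 ends had a lower density in the outermost step.

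Over the 22 ends, peaks in that step had the lower median fold in each list. It was 2.62, 2.02 and 1.95, against 2.93, 2.21 and 1.98 in the other 900 kb. The difference was -0.31 and -0.19 in replicates 1 and 2 but -0.02 in replicate 3 (mean -0.18 ± 0.15, SD, n = 3; exact permutation p = 0.25). At the short-arm ends alone the difference was -0.22, -0.15 and 0.04, so the direction was not shared by replicate 3 there. Over the 22 ends it was the lowest median of the 20 steps in replicates 1 and 2, whereas in replicate 3 it ranked 18 of 20 from the highest. These 2 comparisons of the outermost step were added after its values were seen.

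The covered share of the outermost step went opposite ways in the lists. Peaks lay over 40.8%, 36.6% and 19.9% of it in replicates 1, 2 and 3, against 30.0%, 31.5% and 25.7% of the other 900 kb. It was the most covered of the 10 steps in replicates 1 and 2, where the others ranged from 27.2% to 33.2% and from 29.1% to 34.1%. In replicate 3 it was the least covered, below a range of 22.3% to 28.6%. Of the 20 steps of the outer 2 Mb it was still the most covered in replicate 1 and the least covered in replicate 3. In replicate 2 it ranked 2 of 20, below the step from 1900 to 2000 kb with 37.1%. The mean difference was 3.38 ± 8.47 percentage points (SD, n = 3; exact permutation p = 0.75), 7.98 without replicate 3 and -0.36 without replicate 1. Both arms had this pattern, with 41.7%, 36.2% and 17.0% at the short-arm ends, where the origin is fixed, and 40.1%, 36.9% and 22.4% at the long-arm ends.

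**Figure D2:**
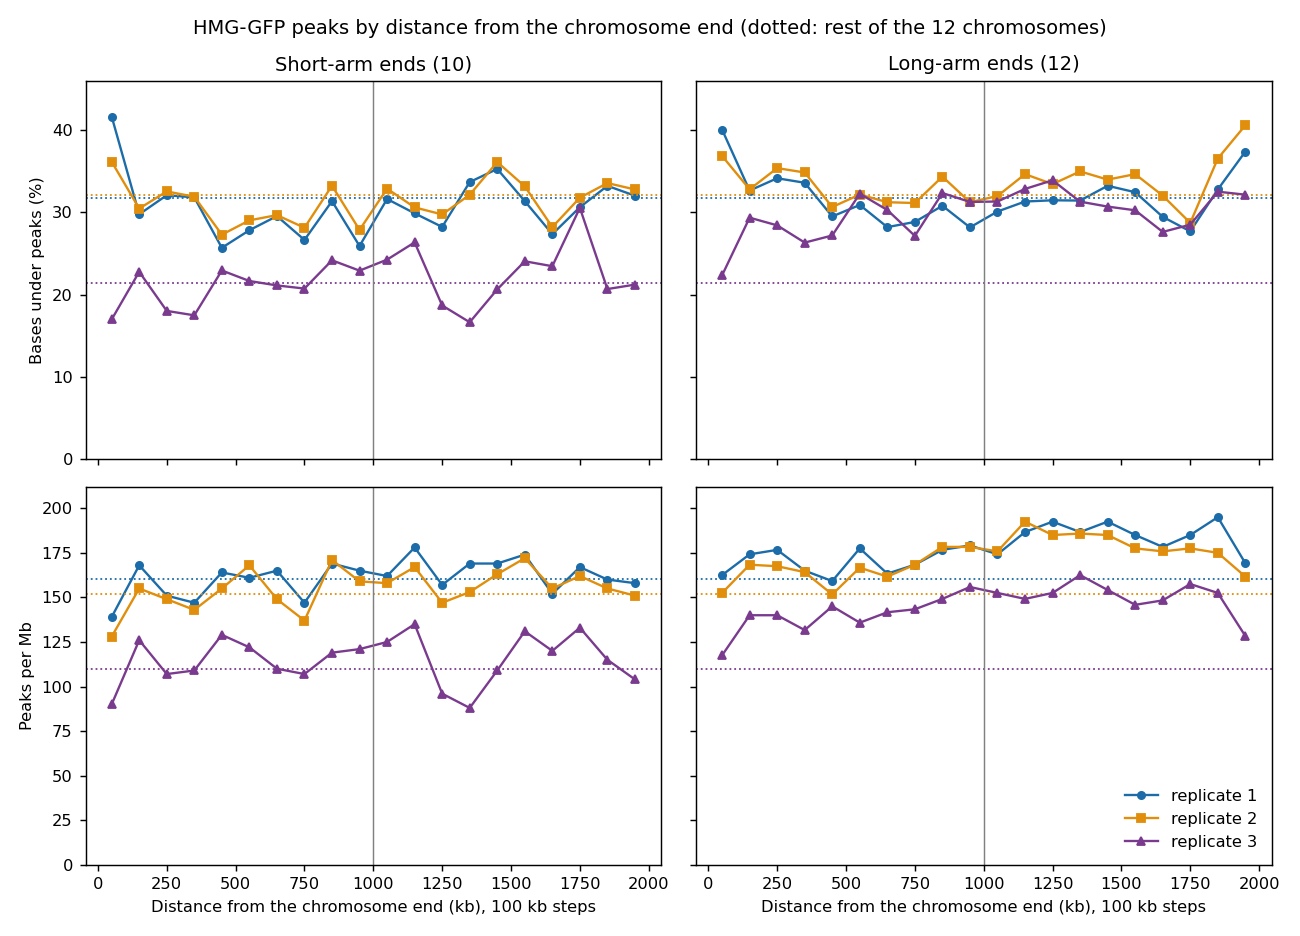
Percent of bases under peaks (top) and peaks per Mb (bottom) by distance from the chromosome end in steps of 100 kb, for 10 short-arm ends (left) and 12 long-arm ends (right), with 1 line per replicate, a dotted line for that replicate in the rest of the chromosomes and a grey line at 1 Mb. The outermost step is the highest of the first 10 for covered share in replicates 1 and 2 and the lowest in replicate 3.

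Fewer peaks over more sequence means wider ones. The mean width in the outermost step was 2686 bp in replicate 1 and 2581 bp in replicate 2, the widest of the 20 steps in both, and 1899 bp in replicate 3, within the range of its other steps. In the other 900 kb the mean widths were 1808, 1955 and 1968 bp. The median was 1400, 1400 and 1600 bp in the outermost step, and the difference in the mean went with a few very wide peaks. Peaks of 10 kb or more numbered 15 of 334 in replicate 1 (4.49%), 12 of 311 in replicate 2 (3.86%) and 0 of 231 in replicate 3. Over all peaks of the 12 chromosomes their shares were 1.6%, 1.56% and 0.379%. They alone covered 13.1% and 10.5% of the outermost step in replicates 1 and 2.

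**Figure D3:**
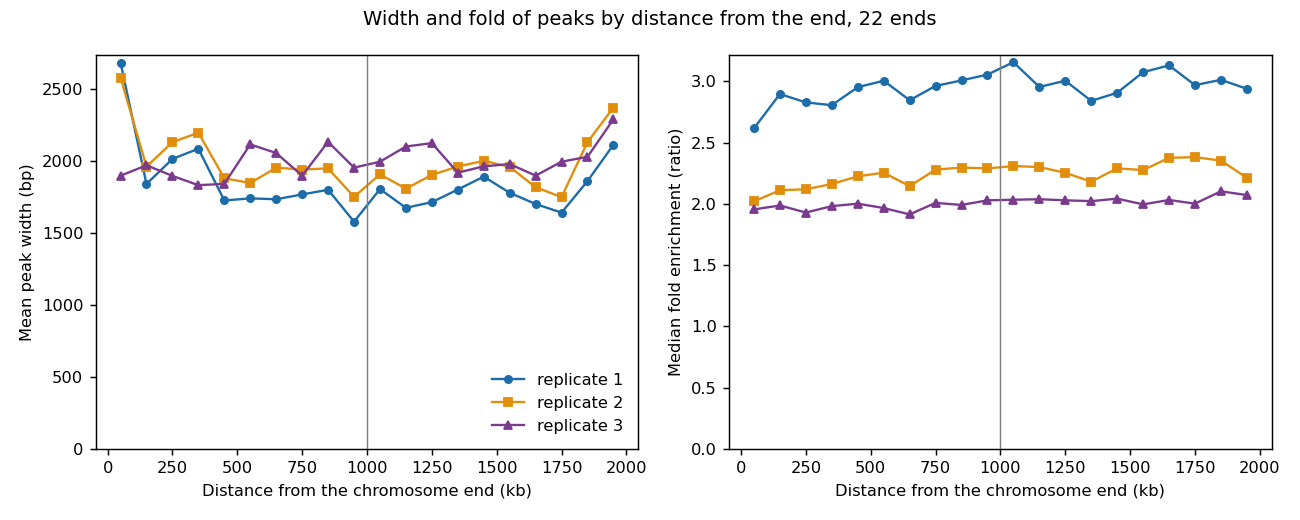
Mean peak width in bp (left) and median fold enrichment (right) by distance from the end in steps of 100 kb over the 22 ends, 1 line per replicate. In replicates 1 and 2 the outermost step has the widest mean, 2686 and 2581 bp, and the lowest median fold, 2.62 and 2.02.

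Leaving out peaks of 10 kb or more, a step chosen after these values were seen, brought the outermost step to 27.7%, 26.1% and 19.9%. The other 900 kb then had 26.3%, 28.0% and 25.2%, and the mean difference was -1.92 percentage points. Without peaks under a fold of 2 it was -2.47, with 24.0%, 10.2% and 8.52% in the outermost step against 23.7%, 15.0% and 11.3% in the other 900 kb. The wide peaks had low folds, with a median of 1.90 in replicate 1 and 1.38 in replicate 2. They stood at 9 of the 22 ends in each of these lists. Both lists had them on the long arms of chromosomes 1, 5 and 9 and the short arms of chromosomes 3, 4, 6, 7 and 9. On the short arm of chromosome 9 they did not overlap, with 1001 to 37800 in replicate 1 and 82401 to 95600 in replicate 2. On chromosome 6 a single peak from 46001 to 92600 was called with the same borders in replicates 1 and 2, with folds of 1.62 and 1.19. On chromosome 9 both lists had an identical peak of 32600 bp from 22971801 to 23004400, with folds of 2.32 and 1.66. These peaks are named after their values were seen.

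Steps of 20 kb showed where within the tip the lists parted. At the short-arm ends replicate 1 covered 45.4% of the first 20 kb, 48.7% of the next and 41.3% from 40 to 60 kb. The 3 steps from 60 to 120 kb had 35.5%, 37.5% and 41.4%, and those from 120 kb to 200 kb between 21.6% and 32.6%. Replicate 2 covered 27.8% of the first 20 kb and 35.8% to 39.8% of the 20 kb steps from 20 kb to 100 kb. From 100 to 120 kb it covered 38.2%. Replicate 3 covered 13.5% and 12.8% of the first and second 20 kb, and 20.3%, 21.3% and 17.0% of the 3 steps from 40 to 100 kb. From 100 to 120 kb it covered 28.1%, and from 120 kb to 200 kb between 14.7% and 28.0%. At the long-arm ends the first 20 kb was covered to 49.4%, 43.8% and 16.6%.

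Individual ends departed far from these averages. In the outermost 100 kb of the short arm of chromosome 6, peaks lay over 79.0%, 78.4% and 4.6% of bases in replicates 1, 2 and 3. The long-arm tip of chromosome 9 had 69.4%, 70.2% and 6.0%. The long-arm tip of chromosome 5 had 69.8%, 34.4% and 4.0%, and the short-arm tip of chromosome 9 had 69.4%, 30.2% and 1.0%. These are the 4 ends covered to over 60% in replicate 1, and replicate 3 covered 6% or less of each. Among all 22 ends, 16 in replicate 1, 12 in replicate 2 and 6 in replicate 3 were covered more in the outermost 100 kb than in the other 900 kb. The combination of more in replicates 1 and 2 and less in replicate 3 occurred at 8 ends. At 3 ends, the short arms of chromosomes 1 and 7 and the long arm of chromosome 10, the outermost step was covered more in all 3 lists. At 4 ends, the short arms of chromosomes 2 and 8 and the long arms of chromosomes 4 and 6, it was covered less in all 3.

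**Figure D4:**
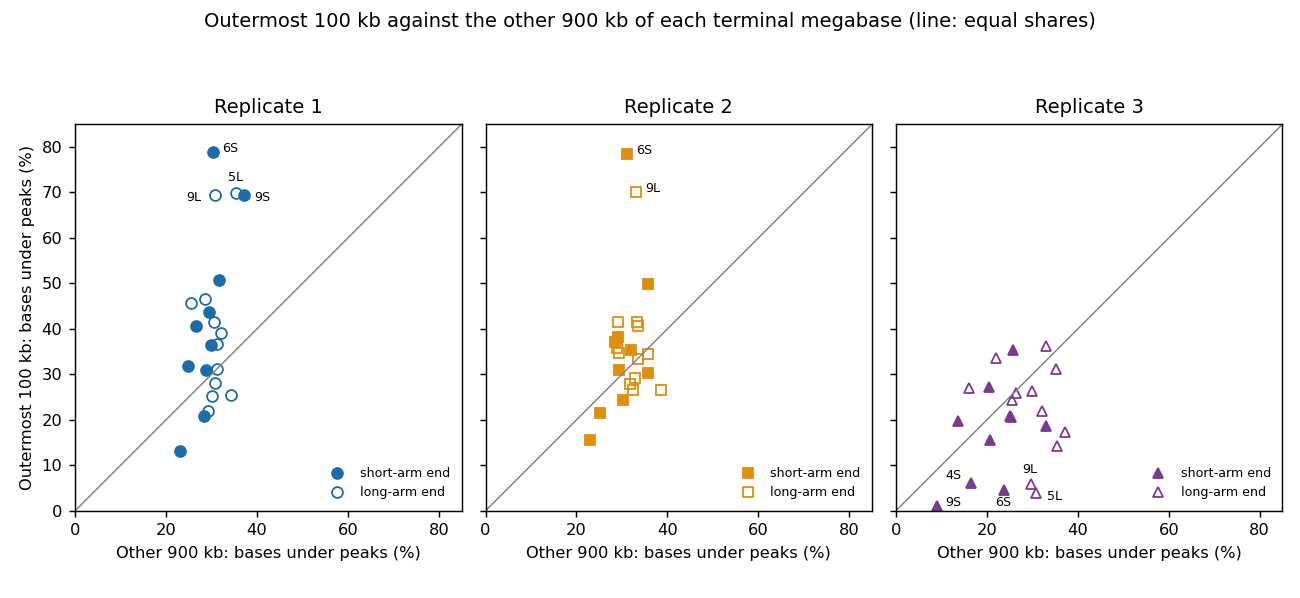
Percent of bases under peaks in the outermost 100 kb (vertical) against the other 900 kb (horizontal) of each of the 22 terminal megabases, 1 panel per replicate, with filled short-arm and open long-arm ends, a line of equal shares, and outlying ends marked by chromosome and arm (S short, L long). In replicate 1, 16 ends lie above the line, and the short arm of chromosome 6 reaches 79.0%; in replicate 3, 6 ends lie above it and none passes 36.2%.

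How close the first peak came to the end differed in the same way. At the 10 short-arm ends the first peak began at most 1 kb from position 1 at 8, 7 and 2 ends in replicates 1, 2 and 3. The median distance was 1000, 1000 and 26000 bp. In replicate 3 more than 30 kb were free of peaks at 5 of the 10, up to 49400 bp on chromosome 6. At the long-arm ends, where the end is set by the lists themselves, the outermost replicate 3 peak lay as far as 76800 bp inside, on chromosome 9.

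The second comparison was between arms, 10 short-arm against 12 long-arm windows. Short-arm windows held fewer peaks and less covered sequence than long-arm windows in every list. They had 158, 151 and 114 peaks per Mb in replicates 1, 2 and 3, against 170.2, 166 and 140.0 in the long-arm windows, a difference of -17.7 ± 7.27 per Mb (SD, n = 3; exact permutation p = 0.25). Peaks covered 30.2%, 30.6% and 20.9% of the short-arm windows and 31.7%, 33.1% and 28.7% of the long-arm windows. The difference of -3.91 ± 3.43 percentage points (SD, n = 3; exact permutation p = 0.25) was -1.46 and -2.44 in replicates 1 and 2 and -7.82 in replicate 3; without replicate 3 its mean was -1.95. Median widths were 1200, 1400 and 1400 bp at the short-arm ends and 1200, 1400 and 1600 bp at the long-arm ends. The arms differed in the same direction in the next megabase, so the contrast was not particular to the last one. There the short-arm side held 165, 158 and 116 peaks per Mb and the long-arm side 184.5, 179 and 150. Covered shares in the next megabase were 31.3%, 32.1% and 22.7% on short arms and 31.7%, 34.2% and 31.1% on long arms.

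Short-arm peaks had the lower median fold as well, 2.80, 2.12 and 1.97 against 3.01, 2.26 and 1.99 at the long-arm ends. Counting only peaks whose fold was 2 or more, the short-arm windows were covered to 21.9%, 12.1% and 8.60% and the long-arm windows to 25.3%, 16.5% and 13.1%. The arms did not differ at each chromosome. Of the 10 chromosomes with both windows, the short-arm end was the less covered one in 6 in replicate 1, 8 in replicate 2 and 8 in replicate 3. In all 3 lists it was less covered on chromosomes 4, 5, 7, 8 and 10 and more covered on chromosome 3. The most negative short-arm minus long-arm difference was -10.8 percentage points in replicate 1, on chromosome 5, then -9.18 in replicate 2, on chromosome 10, and -19.4 in replicate 3, on chromosome 4.

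Chromosomes 4, 9 and 10 have the 3 least covered short-arm windows in replicate 3. They were left out, both arms, after these values were seen, a choice that by itself narrows the difference, so the values below are a description. The short-arm windows then had 164, 161 and 130.1 peaks per Mb and the long-arm windows 168, 164 and 137. The difference was -4.0 per Mb in the mean and -3.13, -2.13 and -6.75 in the lists. The difference in covered share was -1.80, -1.17 and -3.24 percentage points in replicates 1, 2 and 3 (mean -2.07), further from 0 than with all chromosomes in replicate 1 and nearer to 0 in replicates 2 and 3.

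Among the short-arm ends, chromosome 3 was covered the most over the replicates. Its peaks lay over 33.6%, 37.1% and 31.5% of bases, a mean of 34.1% ± 2.81 (SD, n = 3). Chromosome 6 followed with 35.1%, 35.9% and 21.9%, and chromosome 1 with 30.6%, 32.4% and 26.6%. The order of chromosomes 6 and 1, with means of 31.0% ± 7.87 and 29.9% ± 2.95 (SD, n = 3 each), is within the spread between lists. The least covered was chromosome 8, with 22.0%, 22.3% and 20.3%, a mean of 21.5% ± 1.11 (SD, n = 3). Chromosome 10 had nearly the same mean, 21.6% ± 6.35, from 25.6%, 24.9% and 14.2%. Next came chromosome 4 with 30.9%, 30.1% and 15.4%. Of the 22 ends, chromosome 8 was the least covered in replicates 1 and 2, and chromosome 10 came next above the lowest in each list. Chromosome 4 was near the median of the ends in replicates 1 and 2 and far below it in replicate 3.

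The short arm of chromosome 9 showed the widest disagreement between lists of any end. Peaks lay over 40.3% and 35.1% of it in replicates 1 and 2, the highest and the sixth highest of the 22 ends, but over 8.14% in replicate 3, the lowest of all. Its peaks numbered 144, 120 and 56, and their median fold was 2.21, 1.73 and 2.01, the lowest of the 22 ends in replicates 1 and 2. Of its 146 merged regions, 45 (30.8%) held a peak of all 3 replicates.

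The long-arm ends were more alike. Their covered shares ranged from 27.5% to 38.7% in replicate 1, from 29.5% to 37.4% in replicate 2 and from 17.1% to 35.1% in replicate 3, against 22.0% to 40.3%, 22.3% to 37.1% and 8.14% to 31.5% at the short-arm ends. Chromosome 4 led with 33.4%, 37.4% and 34.8%, a mean of 35.2% ± 2.04 (SD, n = 3). Chromosome 5 had 38.7%, 35.6% and 28.1%, and chromosome 10 had 31.6%, 34.1% and 33.3%. Their means were 34.1% ± 5.49 and 33.0% ± 1.24. Chromosome 4 was above chromosome 10 in each list, while the place of chromosome 5 relative to either differed between lists. At the bottom was chromosome 11 with 30.4%, 29.8% and 17.1% (mean 25.8% ± 7.52), then chromosome 12 with 29.7%, 31.4% and 23.1% (28.1% ± 4.37) and chromosome 8 with 30.3%, 29.5% and 25.4% (28.4% ± 2.63; SD, n = 3 each). Chromosome 4 thus joined the most covered long-arm window to a short-arm window among the 3 with the lowest means. Relative to the rest of its own chromosome, the long-arm window was covered more at 5 of 12 ends in replicate 1, 7 in replicate 2 and 11 in replicate 3, and the short-arm window at 3, 3 and 5 of 10.

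**Figure D5:**
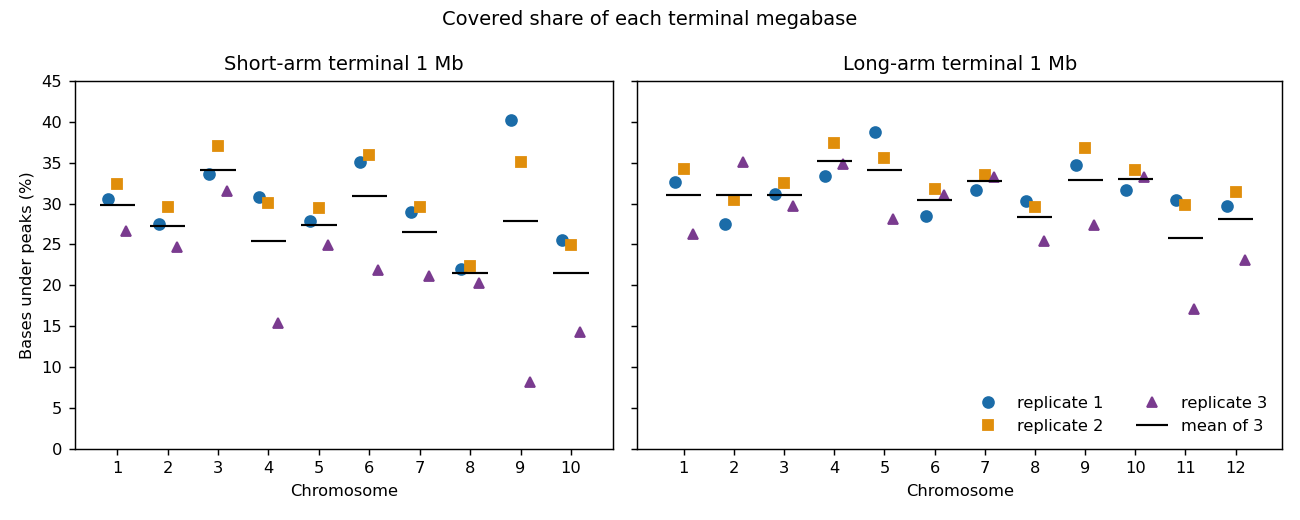
Percent of bases under peaks in each terminal megabase, short-arm ends at left and long-arm ends at right, with a point per replicate and a bar at the mean of the 3. Replicate 3 falls to 8.14% on the short arm of chromosome 9, where replicates 1 and 2 have 40.3% and 35.1%, and the long-arm ends lie closer together.

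Whether terminal peaks recurred between replicates was examined in the merged regions. Of the 3733 terminal regions, 2404 held a peak of all 3 replicates (64.4%, Wilson 95% interval 62.8% to 65.9%). In the rest of the chromosomes the share was 58.3% (57.9% to 58.7%), and over all merged regions it was 58.7%. The intervals cover counting only and treat neighbouring regions as independent. The terminal minus rest difference of 6.14 percentage points was 2.22 without replicate 3 and 1.07 with lists of equal length, and it turned to -1.47 among peaks with a fold of 2 or more. In the next megabase the share was 66.5%. The terminal share was 59.4% at the short-arm ends and 68.3% at the long-arm ends, and it was lowest in the outermost 100 kb, 54.4%, against 65.5% in the other 900 kb. Regions that replicates 1 and 2 had and replicate 3 lacked made up 17.4% of the terminal regions and 22.4% of those in the rest. At single ends the share held by all 3 ran down to 30.8% on the short arm of chromosome 9 and up to 77.3% on the short arm of chromosome 3. Bases under peaks of all 3 lists were 16.4% of the terminal windows, 18.4% of the next megabase and 15.1% of the rest. They were 13.9% of the short-arm and 18.4% of the long-arm windows.

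Taken list by list, replicates 1 and 2 met each other's terminal peaks nearly always. Replicate 2 overlapped 92.6% of the terminal replicate 1 peaks and 90.3% of all of them, and replicate 1 overlapped 93.1% of the terminal replicate 2 peaks, as of all of them. Replicate 3 overlapped 74.2% of the terminal replicate 1 peaks and 77.4% of the terminal replicate 2 peaks, against 66.8% and 70.7% of all. In the other direction, 88.0% and 91.3% of terminal replicate 3 peaks were met by replicates 1 and 2, against 89.9% and 92.7% of all. The terminal shares were thus above those of the rest where replicate 3 did the meeting, by 7.98 and 7.27 percentage points, and below them by 2.11 and 1.47 where its peaks were met. The 6 pairs share lists and were not tested.

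Long gaps between neighbouring peaks were fewer per Mb in the terminal windows than in the rest in 3 of 3 lists. This difference was not tested. Stretches between a chromosome end and its nearest peak were not counted as gaps, and none of them lies in the rest. The terminal counts thus leave out stretches of over 30 kb at 1 short-arm end in replicate 2 and at 5 in replicate 3. In replicate 3 they also leave out 76800, 31200 and 20600 bp at the long-arm ends of chromosomes 9, 8 and 6. Gaps over 20 kb numbered 1.41, 1.73 and 5.14 per Mb in the terminal windows of replicates 1, 2 and 3, and 1.53, 2.27 and 7.87 per Mb in the rest. Short-arm windows had 2.20, 2.30 and 6.60 per Mb and long-arm windows 0.75, 1.25 and 3.92, so the short-arm ends were above the rest in replicates 1 and 2. The longest terminal gap between neighbouring peaks was 35400 bp in replicate 1, starting at 336401 on chromosome 1. In replicate 2 it was 43800 bp, starting at 28584401 on chromosome 11, and in replicate 3 87800 bp, starting at 804401 on chromosome 8. The stretch before the first replicate 2 peak on chromosome 9 was longer than that list's longest terminal gap, at 45200 bp.

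The 10 shared terminal regions with the highest median fold were mostly short, 8 of them 1200 bp or less, and lay away from the tips. All 10 were at least 374.8 kb from the end, 6 of them over 800 kb, and 6 were on short arms. The first, at 35186201 to 35187000 on chromosome 2 and 800 bp wide, reached folds of 8.01, 7.56 and 4.36 in replicates 1, 2 and 3 and ranked 3 among all shared regions of the genome. The second, at 833601 to 834600 on chromosome 1 and 1000 bp wide, had folds of 6.90, 6.52 and 4.51. The long arm of chromosome 2 held another, at 34955801 to 34957000, with folds of 7.90, 6.21 and 3.41. The short arm of chromosome 7 held a pair. Its region at 837801 to 841000 (3200 bp) had folds of 6.93, 6.14 and 2.61, and that at 722001 to 722200 (200 bp) had 6.34, 5.46 and 3.54. These 5 regions were strongest in replicate 1 and weakest in replicate 3.

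The remaining 5 were on chromosomes 4, 6, 8 and 9. Chromosome 4 carried one on its long arm, at 34591001 to 34592000, with folds of 5.84, 5.74 and 3.58. The chromosome 6 region lay at 818401 to 818800, and its folds were 6.38, 5.68 and 3.38. The short-arm region of chromosome 8, at 945401 to 946000, had 6.27, 5.68 and 3.85. The short arm of chromosome 9, sparse in replicate 3, held one from 374801 to 375800 with folds of 7.96, 5.59 and 3.38. The last, at 28059801 to 28062600 on the long arm of chromosome 8 and 2800 bp wide, differed from the other 9 in having its lowest fold in replicate 1, with 3.33, 5.74 and 5.39. The order of replicate 1, then 2, then 3 held in 1649 of the 2404 shared terminal regions (68.6%) and in 69.8% of all shared regions. No source says whether the lists put their folds on 1 scale. Of the 100 shared regions of the 12 chromosomes with the highest median fold, 9 were terminal, while terminal regions made up 6.72% of all 35791 shared regions.

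The 5 widest shared terminal regions had median folds of 1.196 to 2.91, and 2 of them lay within 50 kb of the end at their outer border. The widest, of 46600 bp at 46001 to 92600 on chromosome 6, showed folds of 1.62, 1.19 and 1.196. It is the identical peak of replicates 1 and 2 given above, while in replicate 3 it held 1 peak, which began at 49401. Replicate 3 covered only 4.6% of the outermost 100 kb of that end, so the width is that of the peak in replicates 1 and 2. The second, of 34200 bp at 102801 to 137000 on chromosome 1, joined 2, 1 and 3 peaks of replicates 1, 2 and 3, with highest folds of 2.91, 1.63 and 3.13. On the long arm of chromosome 5 the region at 29919801 to 29947000 was 27200 bp wide, lay 10.4 kb from the end and had folds of 1.85, 1.12 and 1.44. Its borders are those of a replicate 2 peak, and replicate 3 covered only 4.0% of the outermost 100 kb there. Chromosome 2 carried 1 of 26200 bp at 358801 to 385000, with folds of 1.72, 2.40 and 2.30. The long arm of chromosome 4 carried 1 of 25200 bp at 35219001 to 35244200, with 2.12, 1.47 and 2.46.

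The outermost shared region of an end lay between 0 and 76.8 kb from it. It touched the end at 6 ends. At 5 of these the end is set by the lists; the other was the short arm of chromosome 2, where the shared region spanned positions 1 to 800 with folds of 3.22, 2.42 and 1.08. The outermost shared region of chromosome 12 was 1000 bp, from 27529001 to 27530000, with folds of 5.50, 3.45 and 1.99, and on chromosome 11 it was 2400 bp, from 29012401 to 29014800, with 3.32, 2.58 and 1.57. The farthest were those of the long arm of chromosome 9, from 22932601 to 22934800 with folds of 1.80, 1.71 and 1.84, of the short arm of chromosome 6, described above, and of the short arm of chromosome 9, from 45201 to 47000 with 1.38, 1.69 and 1.75.

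At the border of 1 Mb the numbers of peaks were close and the covered share was higher outside in 3 of 3 lists. The last 100 kb inside it and the first 100 kb outside it had 380 and 371 peaks in replicate 1, 373 and 369 in replicate 2, and 308 and 308 in replicate 3. Their covered shares were 27.2% and 30.8%, 29.7% and 32.4%, and 27.5% and 28.1%.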

How the data were processed

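Peak lists of the 3 IP samples were used; the 3 inputs have no list among the files used here. Without roles, MACS2 2.1.2, Bowtie2 2.4.1, Trimmomatic 0.33 and bcl2fastq 2.19 are listed in the submitters' processing notes. The sources used here do not give the caller's settings, the genome build or the use of the inputs. Each list, per the file headers, holds start, end, length, fold enrichment (a linear ratio deposited by the authors), p-value and FDR as deposited by the authors, and a pileup column that equals the fold times a constant and was not used. Every border lies on a 200 bp grid and peaks of one list are at least 800 bp apart, so signal closer together than that appears as 1 wider peak. The depth is unknown.

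Lengths of chromosomes were the last base under any peak of the 3 lists, also when lists were filtered. Covered bases were clipped at window borders; regions were merged at an overlap of at least 1 bp. Differences were taken within each list and tested with an exact paired permutation test; the functions were tested on simulated data. The regions named are the 10 shared terminal regions with the highest median fold, the 5 widest, and the outermost ones by distance; ends are the 3 most and the 3 least covered per arm. Windows, lists and tests were chosen with earlier results of these data known. Alternatives varied the window, the FDR (at most 1e-20), the fold (at least 2), the length of the lists (41474 peaks each), the overlap, the comparison sequence, and the chromosomes and replicates included. A RefSeq gene table of another assembly, whose last gene lies 0.159 to 4.46 Mb past the last peak, was left out. Values were computed in Python 3.11.15 with scipy 1.17.1, pandas 2.3.3 and numpy 2.4.6; plots were drawn in matplotlib 3.10.9.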

Additional observations from a re-analysis of the deposited data

Results flagged for a closer look

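The first megabase of chromosomes 11 and 12 was left out of the windows and is given here because it held peaks outside the comparisons above. Peaks covered 30.2%, 30.1% and 24.9% of it on chromosome 11 in replicates 1, 2 and 3 (mean 28.4%) and 27.3%, 27.2% and 27.8% on chromosome 12 (mean 27.4%).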

How the results depend on the processing

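Of 361 values recomputed under the alternatives, 308 were counted as the same, 23 as moved and 30 as reversed. For the tested differences, same meant only the same sign, whatever the size, and moved meant a value of 0. For the differences without a test, same also meant staying within a tolerance around the value reported. The exact test cannot pass 0.05 in any alternative. The short-arm minus long-arm differences in covered share and in peaks per Mb, and the outermost 100 kb minus other 900 kb differences in peaks per Mb and in median fold, kept their direction in every alternative run. Their size was not held, and the short-arm minus long-arm difference in peaks per Mb ran from -22.5 to -4.0. Differences below are terminal minus rest unless named otherwise, in percentage points for shares, and the cause of a change was not tested. With the adjacent megabase in place of the rest, peaks per Mb gave -9.26, covered share -1.30, median width 0 bp, median fold -0.081, share of peaks with a fold of at least 2 -3.36, share of shared regions -2.12, bases under all 3 lists -2.04 and share of peaks met -1.19. With windows of 0.5 Mb, median fold gave -0.036, share with a fold of at least 2 -1.61, covered share against the adjacent sequence 1.04, shared regions 3.51 and bases under all 3 lists 0.057; with 2 Mb the last pair gave 7.88 and 2.52. With an FDR of at most 1e-20 the median fold gave -0.016, the share with a fold of at least 2 -1.22, the median width of short-arm minus long-arm peaks 0 bp, shared regions 3.43 and bases under all 3 lists 0.626. With a fold of at least 2, median width gave 0 bp, median fold -0.013, shared regions -1.47, bases under all 3 lists -0.58, peaks met -1.09 and the outermost 100 kb minus other 900 kb covered share -2.47, or -2.22 at short-arm ends. That covered share gave -1.92 without peaks of 10 kb or more. With lists of equal length, median fold gave -0.027, share with a fold of at least 2 -1.25, shared regions 1.07 and bases under all 3 lists 0.822. Regions and bases held by at least 2 replicates gave 2.28 and 0.471. Leaving out chromosome 1, 3, 9 or 12 gave 1.77, 1.55, 1.61 or 0.887 for bases under all 3 lists. Without chromosome 7 or 8 the share with a fold of at least 2 gave -0.068 or -0.078 and the short-arm minus long-arm median width 0 bp, and without chromosome 8 the median fold gave -0.00015.

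Leaving out each replicate in turn gave, from lowest to highest, 5.76 to 12.9 for peaks per Mb, -0.48 to 1.80 for covered share, -100.0 to 0 bp for median width, -0.021 to 0.048 for median fold, -1.22 to 3.05 for the share with a fold of at least 2, -1.70 to -0.89 for covered share against the adjacent megabase, -5.13 to -1.95 and -20.2 to -13.5 for covered share and peaks per Mb between arms, -100.0 to 0 bp for median width between arms, -0.36 to 7.98, -22.8 to -17.0 and -0.25 to -0.11 for covered share, peaks per Mb and median fold of the outermost 100 kb, 2.22 to 6.0 for shared regions, -0.037 to 1.72 for bases under all lists used and 1.16 to 2.93 for peaks met. No paired analysis was possible because the inputs, which share the replicate numbers of the IP samples, have no values here.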
